A study of Mus musculus with 8 samples.

Results

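The 45 genes described here encode proteins of the G2/M transition and of mitosis. They were chosen by name from the 54532 genes of the deposited table, by no rule on their values. Earlier results of these data were known when they were chosen. They cover the entry into mitosis (6 genes), mitotic kinases (5), the spindle checkpoint (4), anaphase and mitotic exit (3), mitotic kinesins (9), centromere and kinetochore (5), chromosome structure (5), spindle proteins (4), and cytokinesis with the chromosomal passenger complex (4). The study followed MICFs, its name for cardiac fibroblasts isolated from the infarcted area of hearts on Day 6 after myocardial infarction (MI). The hearts came from 8-week-old male wild-type C57BL/6 mice. By staining, the paper found macrophages and a few endothelial cells in such isolates besides the fibroblasts. All 4 groups carried tetracycline-inducible lentiviruses for MGT (Mef2c, Gata4 and Tbx5), Myocd and Sall4, the mix named MGTMyoS, and for eGFP, and all received doxycycline, so no group without the reprogramming factors was compared. In the in vivo groups these cells were injected into the left ventricle of C57BL/6 mice right after coronary ligation, and in the in vitro groups the same cells stayed in culture, with eGFP+ cells sorted on Days 7 (1w) and 14 (2w), 2 libraries per group.

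The recipients were given tacrolimus, methylprednisolone and mycophenolate mofetil, of which the last slows the division of lymphocytes, and the culture medium contained SB431542, an inhibitor of TGF-β receptors, and baricitinib, an inhibitor of JAK kinases. These agents differ along with the surroundings of the cells, so the effect of the heart and that of the treatments cannot be told apart. The labels do not say whether the libraries of a group came from separate animals or wells, so p-values measure the spread between these libraries, which may be technical.

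A cell that prepares for division makes cyclins A and B, which activate Cdk1, and Cdk1 together with the Aurora and Polo-like kinases condenses the chromosomes and builds the spindle. The spindle checkpoint holds back the anaphase-promoting complex until every kinetochore has attached to microtubules, after which cyclin B and securin are degraded and the chromatids part. Most of these genes are transcribed late in the cell cycle and kept low in resting cells, and adult heart holds few dividing cells except after injury, when fibroblasts and macrophages proliferate. RNA from sorted cells in bulk cannot separate a smaller share of dividing cells from less mRNA in each of them.

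FPKM are fragments scaled by gene length and by library size, as deposited, and 12304242 to 14546904 fragments per library lay on genes. A single fragment on 1 kb of gene is worth 0.0650 to 0.0905 FPKM at this depth. The cell types among the sorted cells were checked through marker lists. Summed FPKM of the 8 fibroblast markers were 12401 to 13231 in vivo and 3046 to 3179 in culture at 1 week, and 10148 to 11569 in vivo and 2080 to 2098 in culture at 2 weeks. In vivo, 6 of the 8 were higher at each week, with Postn and Lum (1 week) and Postn and Col1a1 (2 weeks) changing most.

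The 10 macrophage markers were each at 1 FPKM or more in every library. Their sums, 2545 to 2904 FPKM in vivo and 5019 to 5712 in culture at 1 week and 1844 to 2233 in vivo and 4572 to 5642 in culture at 2 weeks, were carried by Lyz2, which alone was at 1331 to 1453 FPKM in vivo and 3574 to 4014 in culture at 1 week. At 1 week 1 marker was lower in vivo (Lyz2), 1 was higher (Fcgr1, at 14.1 and 21.7 FPKM in vivo and 2.56 and 3.04 in culture) and 8 did not pass, with a median log2 fold change of -0.33. At 2 weeks 4 were lower, Cd68 and Lyz2 most, and 6 did not pass, with a median of -0.76. Ptprc, the leukocyte antigen CD45, was at 6.07 to 7.26 FPKM in vivo and 5.18 to 6.84 in culture at 1 week, and at 3.33 to 4.73 in vivo and 4.45 to 5.36 in culture at 2 weeks, so its libraries overlapped between the conditions at both weeks. Macrophages divide too, and the part of these cells in the values below was not tested.

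Summed cardiomyocyte markers (7) were 9.78 to 12.3 FPKM in vivo and 105 to 115 in culture at 1 week, and 16.9 to 23.0 in vivo and 550 to 622 in culture at 2 weeks. At each week 5 were lower in vivo, Myh6 and Actc1 most, while Pln was higher in vivo at both weeks (2.56 and 3.31 FPKM against 0.0800 and 0.105 at 2 weeks) and Myl2 at 2 weeks (0.636 and 0.789 FPKM against 0.0377 and 0.0742). Summed endothelial markers (6) were 65.5 to 72.0 FPKM in vivo and 19.0 to 19.8 in culture at 1 week, and 57.7 to 61.9 in vivo and 37.9 to 44.1 in culture at 2 weeks, with 5 and 2 of them higher in vivo, most of all Emcn and Pecam1 at 1 week and Vwf and Pecam1 at 2 weeks. Summed mast cell markers (5) were 7.37 to 7.72 FPKM in vivo and 62.6 to 65.6 in culture at 1 week, and 2.07 to 4.08 in vivo and 148 in both culture libraries at 2 weeks, nearly all of it Mcpt4 in culture, with Kit also lower in vivo at 2 weeks. Summed red blood cell markers (5) were 6.46 to 6.57 FPKM in vivo and 0.595 to 0.648 in culture at 1 week, and 4.02 to 5.49 in vivo and 0.331 to 0.562 in culture at 2 weeks, with Hba-a1 and Hbb-bs higher in vivo at both weeks. Summed lymphocyte markers (8) stayed between 0.730 and 3.59 FPKM in all libraries. The part of these cells in the values below was likewise not tested.

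Mitosis and G2/M genes were highest in culture at 1 week and lowest in the heart at 2 weeks. The median member stood at 4.92 and 5.15 FPKM in the 1w culture libraries, 2.33 and 2.31 in the 1w in vivo libraries, 2.33 and 2.46 in the 2w culture libraries, and 0.902 and 0.787 in the 2w in vivo libraries. In 41 of the 45 members, both in vitro 1w libraries lay above all other libraries and both in vivo 2w libraries lay below all others, an order seen in 4.61% of the 15708 genes tested. The exceptions were Cdc25c, Bub3, Espl1 and Cenpa. The in vitro 2w and in vivo 1w libraries lay between these extremes and had no common order. Both in vitro 2w libraries were above both in vivo 1w libraries in 17 members and below them in 9, and the 2 groups overlapped in 19.

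**Figure D1:**
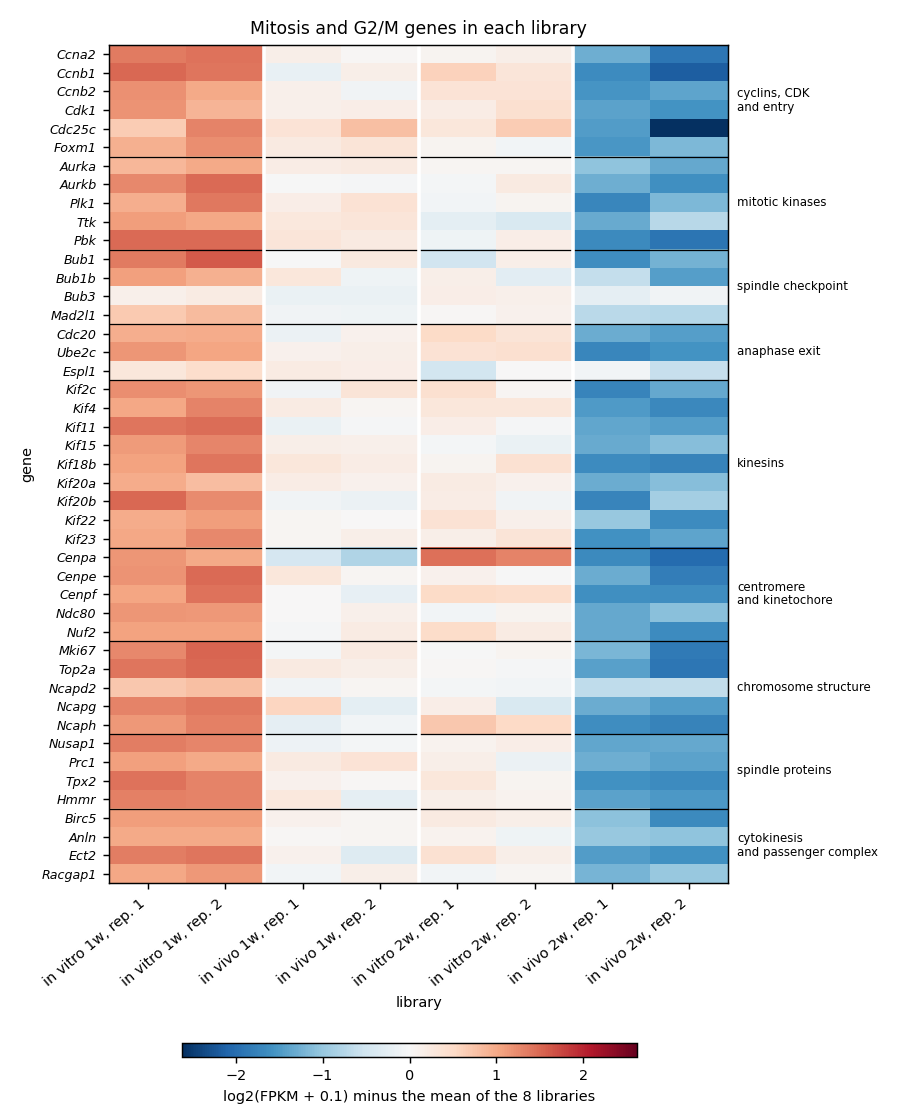
Heat map of the 45 members (rows, grouped by role) in the 8 libraries (columns). Colour is log2(FPKM + 0.1) minus the mean of the 8 libraries for that gene. The 2 libraries from 1 week of culture are red in most rows and the 2 libraries from 2 weeks in vivo are blue, and Bub3 and Espl1 stay pale throughout.

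To see what these genes share besides their role, their promoters were searched for the cell cycle genes homology region (CHR) and the CCAAT box. The CHR is a short element bound by the MuvB core, which represses G2/M genes in resting cells as part of DREAM and activates them with B-MYB and FOXM1, and the CCAAT box is bound by NF-Y. RefSeq promoter sequences (GRCm38.p6, 250 bases before to 50 bases after a start) were matched for 38 members, and not for Ccna2, Cdc25c, Foxm1, Aurkb, Pbk, Kif20a and Tpx2. For the CHR core the letters searched were TTTGAA, which reads TTCAAA on the opposite strand, and the palindrome TTCGAA. Other forms of the element were not searched. For the box they were CCAAT, which reads ATTGG on the opposite strand. No base belonged to both motifs in any of the 38 windows.

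A CHR core within 50 bases of the start was present in 28 of 38 members (73.7%) and in 945 of 20481 matched promoters of all genes (4.61%). A CCAAT box lay in the window of 28 of 38 members (73.7%) and of 38.2% of all promoters, and 24 members held both (63.2%, against 2.03%). CCAAT boxes whose starts were 31 to 33 bases apart were present in 6 members (15.8%), namely Ccnb1, Ccnb2, Cdk1, Aurka, Ube2c and Hmmr, and in 1.24% of all promoters. These are matches of letters and not sites of binding.

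The sequences below are the 100 bases before the RefSeq start, 5′ to 3′ on the strand of the gene, with CHR cores and CCAAT boxes in capitals. The first 4, chosen after their values were seen, belong to genes that were lower in vivo at 2 weeks and fell in the heart between the weeks. Cdk1 lies at chr10:69352913-69353012 (- strand), Ube2c at chr2:164769829-164769928 (+ strand), Cdc20 at chr4:118437344-118437443 (- strand) and Top2a at chr11:99024190-99024289 (- strand).
Cdk1: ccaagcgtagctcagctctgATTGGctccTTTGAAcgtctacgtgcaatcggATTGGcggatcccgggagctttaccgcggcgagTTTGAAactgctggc
Ube2c: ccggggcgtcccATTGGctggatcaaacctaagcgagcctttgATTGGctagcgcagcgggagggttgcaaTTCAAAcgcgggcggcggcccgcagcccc
Cdc20: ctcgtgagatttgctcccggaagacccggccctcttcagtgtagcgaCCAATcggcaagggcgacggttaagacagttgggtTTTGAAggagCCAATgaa
Top2a: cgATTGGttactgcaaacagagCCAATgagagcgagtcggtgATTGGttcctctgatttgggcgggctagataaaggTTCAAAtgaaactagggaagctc
In Cdk1 and Cdc20 the core nearest the start began 15 and 18 bases before it, and in Top2a and Ube2c it was read on the other strand, 23 and 29 bases before it.

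A second set, likewise chosen after the values were seen, pairs Ccnb1 and Cenpa with Espl1 and Bub3. Ccnb1 and Cenpa differed widely between heart and culture and hold none of the searched CHR letters in these 100 bases. Others of this kind are Ncaph, Nuf2, Cenpf, Kif18b, Kif4 and Ccnb2. The letters TTTAAA, present in the printed stretches of both Ccnb1 and Cenpa, were not among those searched. Espl1 and Bub3 hold a searched core there and differed least. Ccnb1 lies at chr13:100786487-100786586 (- strand), Cenpa at chr5:30666786-30666885 (+ strand), Espl1 at chr15:102296193-102296292 (+ strand) and Bub3 at chr7:131560270-131560369 (+ strand).
Ccnb1: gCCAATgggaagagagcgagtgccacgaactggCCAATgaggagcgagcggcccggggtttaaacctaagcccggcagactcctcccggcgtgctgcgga
Cenpa: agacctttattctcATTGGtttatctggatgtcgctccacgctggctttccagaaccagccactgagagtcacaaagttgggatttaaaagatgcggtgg
Espl1: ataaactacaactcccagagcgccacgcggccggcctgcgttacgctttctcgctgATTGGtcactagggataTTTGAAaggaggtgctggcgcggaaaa
Bub3: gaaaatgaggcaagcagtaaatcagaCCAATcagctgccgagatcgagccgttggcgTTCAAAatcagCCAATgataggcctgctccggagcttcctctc
In Cenpa a CHR core starts 17 bases into the RefSeq transcript, outside the printed stretch. The deposited annotation starts Cenpa upstream of that stretch, which then lies within the gene. Cores also start at base 3 of the transcript in Cenpf, 4 in Kif18b, 5 in Ccnb2 and 20 in Kif4. For these 5 genes the absence concerns only the 100 bases before the start. Ccnb1, Ncaph and Nuf2 held none of the searched CHR letters in the whole window. A core within 50 bases of the start was found in 13 of 19 matched members that were lower in vivo at both weeks, in 9 of 11 that were lower at 2 weeks only, and in 6 of 8 that were lower at neither week.

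The in vivo and in vitro groups were compared at each week to ask whether the same infected cells differ between the heart and culture. The test was limma on log2(FPKM + 0.1). To count as changed, a gene needed an adjusted p (Benjamini-Hochberg, over 15708 genes) under 0.01 together with a log2 fold change beyond 1 in either direction. At 1 week, 23 of the 45 members were lower in vivo and 0 were higher, where 5.07% of all genes tested were lower and 7.79% higher. Of the members, 0 were also higher at an unadjusted p under 0.05 and with limma voom on the recovered fragments. This held for the members in the comparisons that follow too. All 45 log2 fold changes were below 0, against 50.6% of all genes, with a median of -1.04 (2.05-fold lower) against -0.01 for all genes. Of the 22 members that did not pass, 11 had an adjusted p under 0.01 with a smaller fold change. The libraries of the 2 groups did not overlap in 44 members, with Cdc25c the exception, and culture was above the heart in 36.6% of all genes.

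At 2 weeks, 37 of the 45 members were lower in vivo and 0 were higher, where 8.05% of all genes tested were lower and 9.02% higher. All 45 log2 fold changes were again below 0 (50.3% of all genes), with a median of -1.56 (2.94-fold lower). Both in vitro libraries were above both in vivo libraries in 44 members, Espl1 being the exception, as they were in 37.4% of all genes. The 23 members lower at 1 week were all among the 37. The other 14 passed at 2 weeks only, a difference in calls that was tested through the contrast between weeks given further on. Among the 8 members that passed at neither week were 3 of the 4 spindle checkpoint genes (Bub1b, Bub3 and Mad2l1) and the condensin genes Ncapd2 and Ncapg, with Ttk, Espl1 and Kif15.

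**Figure D2:**
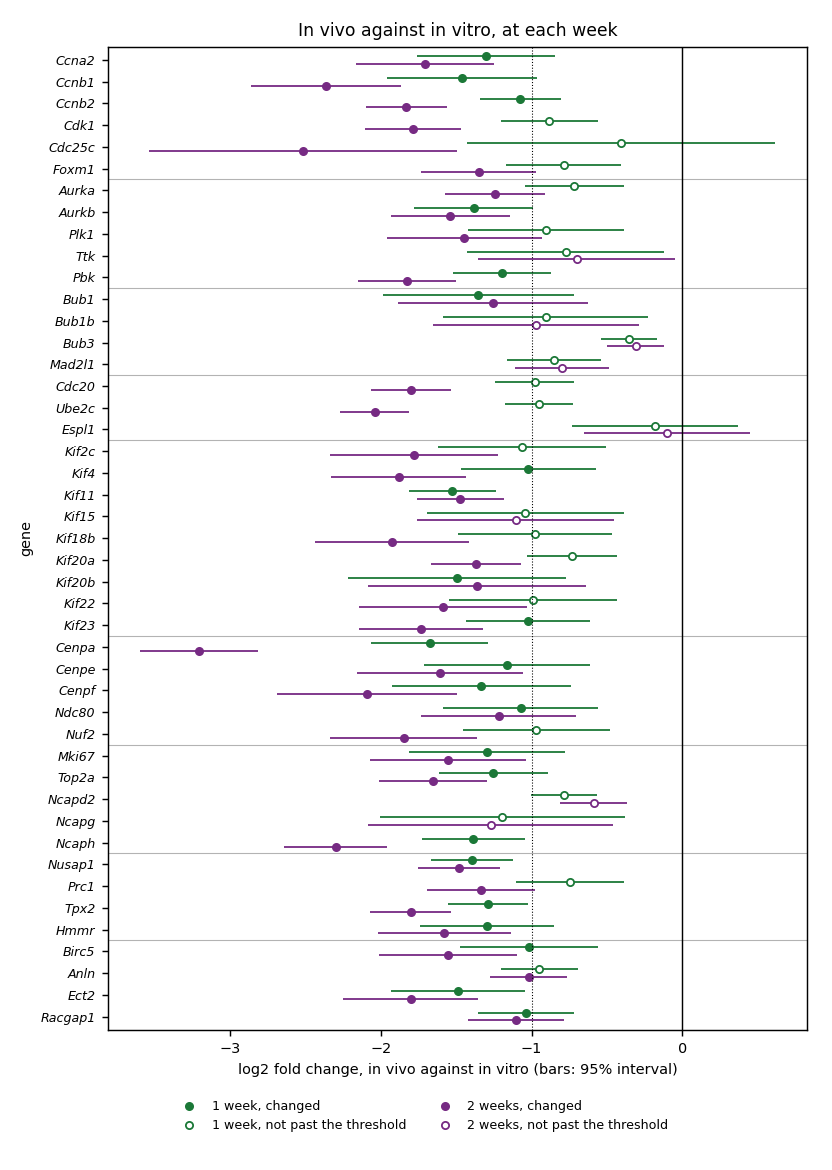
Log2 fold change of each member in vivo against in vitro, on log2(FPKM + 0.1), at 1 week (green) and 2 weeks (purple), with 95% intervals from limma as bars and n = 2 libraries per group. Filled points passed the adjusted p and the fold change threshold (dotted line at -1), and Cenpa lies farthest left at 2 weeks, at -3.21.

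With a pseudocount of 1 in place of 0.1, 13 members were lower at each week. With only the 4 libraries of that week in the fit, 17 were lower at 1 week and 19 at 2 weeks. All 23 and 37 calls at the 2 weeks rest on FPKM that the authors had scaled between libraries. Without that scaling 41 members were lower at 1 week and 41 at 2 weeks, while the median of all genes moved to -0.34 and -0.33. At 1 week the count was 10 to 13 when any 1 of the 4 libraries of that week was left out, being 11 and 13 without in vivo 1w replicate 1 and 2 and 10 and 12 without in vitro 1w replicate 1 and 2.

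The change from 1 to 2 weeks was compared within each condition to follow the genes over time. In the heart, 31 of the 45 members fell between the weeks and 0 rose, where 0.949% of all genes fell and 1.23% rose. The log2 fold change was below 0 in 44 members and in 50.5% of all genes. The median log2 fold change was -1.49 (2.80-fold lower), against 0.00 for all genes. Both in vivo 1w libraries were above both in vivo 2w libraries in 44 members, with Bub3 the exception, and in 28.9% of all genes. The members thus supplied 31 of the 149 genes that fell in the heart. With a pseudocount of 1 the count was 12. With only the 4 in vivo libraries in the fit, limma passed 0 of the 15708 genes, and 43 members had an unadjusted p under 0.05. The count was 5 without in vivo 1w replicate 1, 7 without in vivo 1w replicate 2 and 20 without in vivo 2w replicate 2.

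In culture, 16 of the 45 members fell between the weeks and 0 rose, where 1.05% of all genes fell and 2.76% rose. The log2 fold change was below 0 in 44 members and in 48.2% of all genes, and the median member stood at -1.0 (2.0-fold lower). Both in vitro 1w libraries were above both in vitro 2w libraries in 43 members, as in 31.4% of all genes. Bub3 overlapped, and Cenpa was higher in both libraries at 2 weeks. The count was 8 with a pseudocount of 1, 8 with all genes above 0 tested and 25 with limma voom. With only the 4 in vitro libraries 0 genes passed with limma, and 42 members had an unadjusted p under 0.05. The count depended on the libraries kept, with 1 member left without either in vitro 1w replicate 1 or in vitro 1w replicate 2, 4 and 3 without in vitro 2w replicate 1 or 2, and 10 without in vivo 1w replicate 1 or in vivo 1w replicate 2.

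Whether the in vivo against in vitro difference itself changed between the weeks was tested with an interaction contrast. It passed for 1 of the 45 members, Ube2c, where 1.15% of all genes passed with a lower value at 2 weeks and 0.573% with a higher value. The log2 contrast was below 0 in 37 members and in 50.8% of all genes, with a median of -0.51 against -0.01 for all genes, and 18 members had an unadjusted p under 0.05. The difference between the weeks was therefore not shown for 44 members taken singly, the 14 called at 2 weeks only among them except Ube2c. The 12 members that passed in all 4 comparisons were Ccna2, Aurkb, Pbk, Kif11, Cenpe, Mki67, Top2a, Nusap1, Tpx2, Hmmr, Ect2 and Racgap1.

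**Figure D3:**
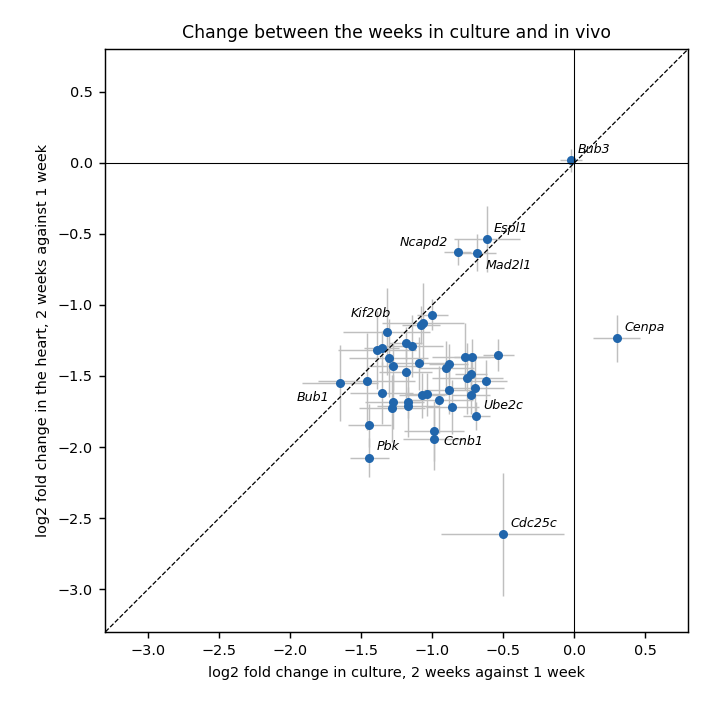
Log2 fold change from 1 to 2 weeks in culture (x axis) and in vivo (y axis) for the 45 members, on log2(FPKM + 0.1), with standard errors as bars and n = 2 libraries per group. The axes use different libraries, the dashed line marks equal change, and most points lie below it, with Cenpa to the right of 0 and Cdc25c lowest.

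Entry into mitosis is driven by cyclins A and B with Cdk1, by the phosphatase Cdc25c that removes the inhibitory phosphates of Cdk1, and by Foxm1, a transcription factor of G2/M genes. Of these 6 genes, 3 were lower in vivo at 1 week and 6 at 2 weeks, 5 fell in the heart and 2 fell in culture (Ccna2 and Foxm1). Ccnb1, a cyclin B, was at 7.67 and 7.13 FPKM in culture and 2.31 and 2.97 FPKM in vivo at 1 week, and 4.06 and 3.33 FPKM in culture and 0.777 and 0.515 FPKM in vivo at 2 weeks. Its log2 fold change in vivo against in vitro was -1.46 ± 0.21 (SE, adjusted p = 0.0016) at 1 week and -2.36 ± 0.21 (SE, adjusted p = 0.00014) at 2 weeks, the third largest of all members at the later time. A pseudogene, Ccnb1-ps, was at 0.169 to 0.629 FPKM, so some reads may have been split between the 2.

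Ccna2, the cyclin A of S phase and G2, was at 8.99 and 9.31 FPKM (culture) and 3.81 and 3.5 FPKM (in vivo) at 1 week, then 3.61 and 3.82 FPKM (culture) and 1.35 and 0.843 FPKM (in vivo) at 2 weeks. Cdk1, the kinase partner of both cyclins, was at 8.66 and 7.15 FPKM in culture and 4.17 and 4.28 FPKM in vivo at 1 week, and 4.37 and 5.08 FPKM in culture and 1.38 and 1.21 FPKM in vivo at 2 weeks. In both genes the in vivo 2w libraries were lowest and the in vitro 1w libraries highest. Cdk1 missed the fold change threshold at 1 week, with a log2 fold change of -0.88 (adjusted p = 0.0022), and was lower at 2 weeks at -1.79 (adjusted p = 6.7e-05). Foxm1 was at 4.92 and 5.97 FPKM (culture) and 3.0 and 3.20 FPKM (in vivo) at 1 week, then 2.66 and 2.39 FPKM (culture) and 0.816 and 1.05 FPKM (in vivo) at 2 weeks. It fell in both conditions, by 1.64 on the log2 scale in vivo and by 1.07 in culture. Ccnb2, the other cyclin B, was lower in vivo at both weeks at log2 -1.08 (adjusted p = 0.0004) and -1.83 (adjusted p = 2.8e-05).

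Cdc25c was the least expressed of the 6, at 1.34 and 2.10 FPKM in culture and 1.06 and 1.46 FPKM in vivo at 1 week, and 1.01 and 1.33 FPKM in culture and 0.228 and 0.0466 FPKM in vivo at 2 weeks. The last 2 values rest on 5 and 1 fragments, where the 1w in vivo libraries had 24 and 37. Groups overlapped at 1 week and were far apart at 2 weeks. Its log2 fold change at 2 weeks was -2.52 ± 0.43 (SE, adjusted p = 0.0028), and ran from -3.33 with a pseudocount of 0.01 to -0.93 with a pseudocount of 1, at which it no longer passed. The 95% interval at 1 week was -1.43 to 0.62.

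Mitotic kinases include the Aurora kinases, Plk1, the checkpoint kinase Ttk and Pbk, a kinase abundant in dividing cells. Of the 5, 2 were lower in vivo at 1 week (Aurkb and Pbk), 4 at 2 weeks, 4 fell in the heart and 2 in culture, Ttk passing in none. Aurkb, the catalytic subunit of the chromosomal passenger complex, was at 5.78 and 6.70 FPKM (culture) and 2.35 and 2.29 FPKM (in vivo) at 1 week, then 2.26 and 2.80 FPKM (culture) and 0.902 and 0.707 FPKM (in vivo) at 2 weeks. Plk1, which acts from mitotic entry to cytokinesis, was at 6.47 and 8.71 FPKM in culture and 3.69 and 4.26 FPKM in vivo at 1 week, and 3.12 and 3.44 FPKM in culture and 0.927 and 1.40 FPKM in vivo at 2 weeks. Pbk was at 9.50 and 9.50 FPKM (culture) and 4.20 and 3.99 FPKM (in vivo) at 1 week, then 3.11 and 3.78 FPKM (culture) and 0.989 and 0.809 FPKM (in vivo) at 2 weeks. All 3 had their lowest libraries in the heart at 2 weeks, and Pbk fell there by 2.07 on the log2 scale, the largest drop of a member past the threshold.

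The Plk1 log2 fold change was -0.90 (adjusted p = 0.014) at 1 week, short of both thresholds, and -1.45 (adjusted p = 0.0015) at 2 weeks. Aurka, the Aurora kinase of the spindle poles, was at log2 -0.72 (adjusted p = 0.006) and -1.24 (adjusted p = 0.0004), and passed at 2 weeks. Ttk was at 1.51 and 1.42 FPKM (culture) and 0.799 and 0.827 FPKM (in vivo) at 1 week, then 0.529 and 0.463 FPKM (culture) and 0.198 and 0.350 FPKM (in vivo) at 2 weeks. Its libraries did not overlap between heart and culture at either week. It missed both thresholds, with log2 fold changes of -0.77 and -0.70 (SE 0.28) and adjusted p of 0.061 and 0.073 by limma.

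The spindle checkpoint delays anaphase until chromosomes are attached, through Bub1, Bub1b, Bub3 and Mad2l1, which form complexes at unattached kinetochores and hold back Cdc20. Of these 4, 1 was lower in vivo at each week (Bub1), 0 fell in the heart and 1 fell in culture (Bub1). All 4 were below 0 on the log2 scale at both weeks, and in the heart 3 had an unadjusted p under 0.05 and 1 passed with limma voom. Bub1, a kinase of the outer kinetochore, was at 3.74 and 4.44 FPKM in culture and 1.39 and 1.69 FPKM in vivo at 1 week, and 0.963 and 1.57 FPKM in culture and 0.387 and 0.541 FPKM in vivo at 2 weeks. Its drop between the weeks of culture, -1.65 ± 0.27 (SE, adjusted p = 0.0066) on the log2 scale, was the largest of any member there, and in the heart the value was -1.55 ± 0.27 (SE, adjusted p = 0.012).

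Bub1b, which encodes BubR1, was at 6.66 and 5.98 FPKM (culture) and 3.84 and 2.87 FPKM (in vivo) at 1 week, then 3.45 and 2.55 FPKM (culture) and 1.97 and 1.08 FPKM (in vivo) at 2 weeks. Its replicates spread more than those of most members, and its log2 fold change was -0.91 (adjusted p = 0.041) and -0.97 (adjusted p = 0.028) in vivo against in vitro at the 2 weeks. Mad2l1 was at 2.86 and 3.21 FPKM in culture and 1.65 and 1.62 FPKM in vivo at 1 week, and 1.80 and 1.89 FPKM in culture and 1.03 and 1.0 FPKM in vivo at 2 weeks. The log2 values in vivo against in vitro, -0.85 (adjusted p = 0.0023) and -0.80 (adjusted p = 0.0024), passed on the adjusted p and missed the fold change threshold.

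Bub3 stood apart as the member that varied least, at 8.75 and 9.23 FPKM (culture) and 7.01 and 7.03 FPKM (in vivo) at 1 week, then 8.97 and 8.70 FPKM (culture) and 6.75 and 7.48 FPKM (in vivo) at 2 weeks. Culture lay above the heart at both weeks with no overlap, at log2 -0.35 (adjusted p = 0.011) and -0.31 (adjusted p = 0.016). Between the weeks it was at 0.02 in the heart (95% interval -0.17 to 0.20) and -0.02 in culture (-0.21 to 0.16), 2 values whose sign changed with single libraries or, in the heart, the scaling. In the 2w in vivo libraries it was by far the highest member, with Ncapd2 next at 2.62 and 2.69 FPKM. The gene overlaps Fgfr2, on the opposite strand, at 3.32 to 7.25 FPKM, and whether counting used strand is not given in the sources used here. Opposite-strand genes also overlap Ccna2 (Exosc9, at 2.68 to 4.35 FPKM), Cdc20 (Elovl1, at 27.2 to 34.7 FPKM, over 53 bases) and Kif4 (Pdzd11, at 8.77 to 11.5 FPKM). The same holds for Nusap1 (Oip5, at 0.299 to 2.52 FPKM), Prc1 (Rccd1, at 0.577 to 1.31 FPKM) and Ncapg (Lcorl, at 0.480 to 0.958 FPKM). Lcorl thus lay above the 0.192 and 0.226 FPKM of Ncapg in vivo at 2 weeks. Without strand, reads from the bases that such a pair shares cannot be told apart.

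Anaphase and mitotic exit follow from Cdc20, which activates the anaphase-promoting complex, from Ube2c, the ubiquitin-conjugating enzyme of that complex, and from Espl1, the separase that cuts cohesin. Of the 3, 0 passed in vivo against in vitro at 1 week and 2 at 2 weeks, and the same 2, Cdc20 and Ube2c, fell in the heart while 0 passed in culture. At an unadjusted p under 0.05 the counts of 0 became 2 at 1 week and 3 in culture, and with limma voom they stayed at 0. Cdc20 was at 12.7 and 12.7 FPKM in culture and 5.85 and 6.99 FPKM in vivo at 1 week, and 9.25 and 8.27 FPKM in culture and 2.56 and 2.33 FPKM in vivo at 2 weeks. Ube2c was at 10.9 and 9.91 FPKM (culture) and 5.26 and 5.4 FPKM (in vivo) at 1 week, then 6.31 and 6.51 FPKM (culture) and 1.40 and 1.57 FPKM (in vivo) at 2 weeks. For both, the gap between culture and heart was wider at 2 weeks, in Ube2c from a log2 fold change of -0.95 ± 0.10 (SE, adjusted p = 0.00032) to -2.04 ± 0.10 (SE, adjusted p = 8.3e-06). The interaction contrast of Ube2c was -1.09 ± 0.14 (SE, adjusted p = 0.0064), with a 95% interval of -1.41 to -0.77, and that of Cdc20 was -0.82 (adjusted p = 0.025). The call was lost when any library but in vivo 2w replicate 2 was left out, with contrasts of -1.16 to -1.01. A related pseudogene was at 0.741 to 3.83 FPKM, which makes its level less certain.

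Espl1 behaved otherwise, at 2.23 and 2.49 FPKM in culture and 2.11 and 2.04 FPKM in vivo at 1 week, and 1.26 and 1.80 FPKM in culture and 1.70 and 1.15 FPKM in vivo at 2 weeks. Heart and culture differed by a log2 fold change of -0.18 ± 0.23 (SE, adjusted p = 0.57) at 1 week and -0.10 ± 0.23 (SE, adjusted p = 0.76) at 2 weeks, when the libraries overlapped. The 95% intervals were -0.73 to 0.37 and -0.65 to 0.45, so a difference of the median size among members, -1.56 at 2 weeks, lay outside the later interval.

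**Figure D4:**
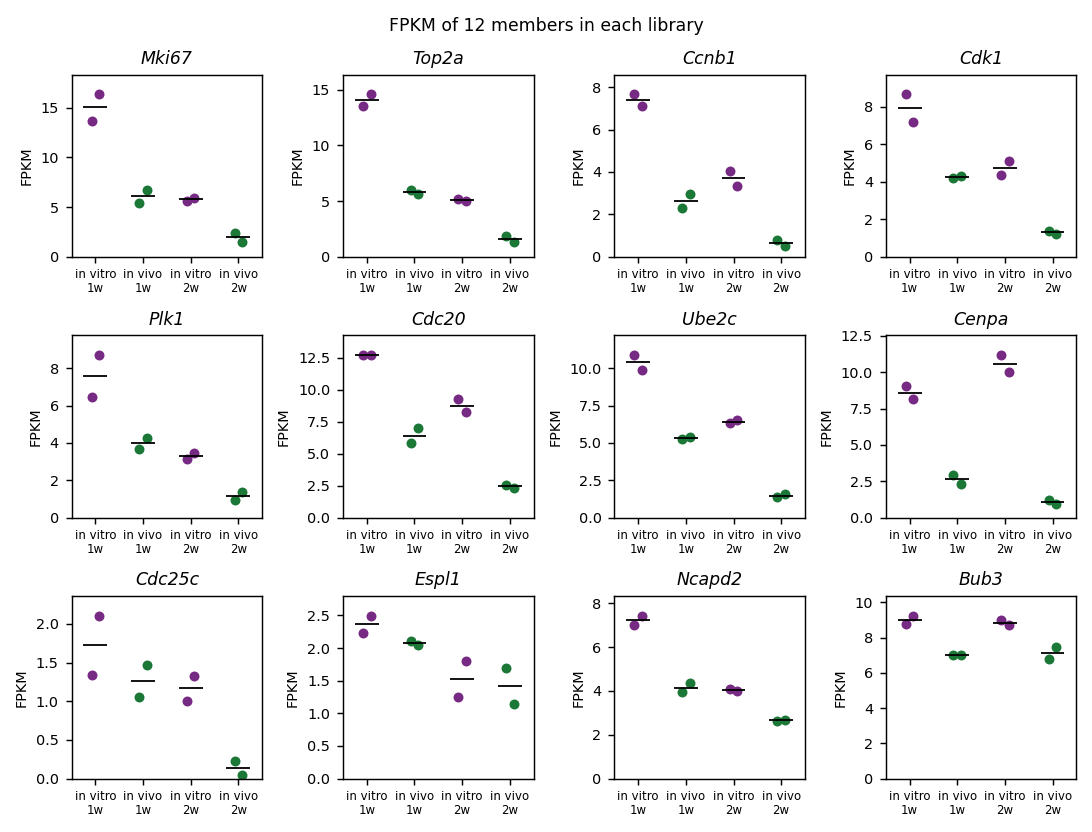
FPKM of 12 members in each library (points, purple for culture and green for in vivo), with group means of 2 libraries as black bars and each axis starting at 0. Most panels step down from culture at 1 week to the heart at 2 weeks, Cenpa stays at 8.15 to 11.2 FPKM in culture at both weeks, and Bub3 lies between 6.75 and 9.23 FPKM in all libraries.

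Mitotic kinesins are motor proteins that build the spindle, move chromosomes and organise the midzone. Of the 9, 4 were lower in vivo at 1 week and 8 at 2 weeks, with Kif15 the exception, while 6 fell in the heart and 1 (Kif11) in culture. Kif11, the motor that pushes spindle poles apart, was at 7.59 and 7.89 FPKM in culture and 2.48 and 2.77 FPKM in vivo at 1 week, and 3.20 and 2.75 FPKM in culture and 1.03 and 0.977 FPKM in vivo at 2 weeks. Its difference was already wide at 1 week, with a log2 fold change of -1.53 ± 0.12 (SE, adjusted p = 0.00011), and was -1.47 ± 0.12 (SE, adjusted p = 0.0001) at 2 weeks. Kif20a, a motor of the cleavage furrow, was at 5.36 and 4.76 FPKM (culture) and 3.08 and 2.93 FPKM (in vivo) at 1 week, then 3.14 and 2.91 FPKM (culture) and 1.03 and 1.19 FPKM (in vivo) at 2 weeks. It passed at 2 weeks and not at 1 week, with log2 fold changes of -1.37 (adjusted p = 0.00016) and -0.73 (adjusted p = 0.0037). Kif20a overlaps Cdc23, on the opposite strand, at 3.87 to 6.05 FPKM.

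Kif20b was at 3.03 and 2.48 FPKM in culture and 0.933 and 0.883 FPKM in vivo at 1 week, and 1.15 and 0.930 FPKM in culture and 0.229 and 0.495 FPKM in vivo at 2 weeks, and passed as lower in the heart at each week. Kif18b, a regulator of astral microtubules, was at 2.16 and 2.79 FPKM (culture) and 1.24 and 1.16 FPKM (in vivo) at 1 week, then 1.05 and 1.34 FPKM (culture) and 0.248 and 0.228 FPKM (in vivo) at 2 weeks. In the heart it fell by 1.95 on the log2 scale (adjusted p = 0.0027). Kif2c, Kif4, Kif22 and Kif23 lay between -1.06 and -0.99 on the log2 scale at 1 week and between -1.88 and -1.59 at 2 weeks, when all 4 passed.

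At the centromere, Cenpa is the histone H3 variant that marks it, Cenpe is a kinesin that captures microtubules, and Ndc80 and Nuf2 belong to the complex that couples kinetochores to them. Of these genes and Cenpf, 5 in all, 4 were lower in vivo at 1 week and 5 at 2 weeks, 3 fell in the heart and 1 (Cenpe) in culture. Cenpa, at chr5:30666777-30674830 on the plus strand of mm10, had the largest difference of all 45 members at both weeks. It was at 9.03 and 8.15 FPKM in culture and 2.96 and 2.31 FPKM in vivo at 1 week, and 11.2 and 9.99 FPKM in culture and 1.19 and 0.927 FPKM in vivo at 2 weeks. Its culture libraries did not drop with time as those of most other members did (Bub3 did not either), with a log2 fold change of 0.30 ± 0.16 (SE, adjusted p = 0.23) between the weeks of culture. In the heart it fell by 1.23 on that scale (adjusted p = 0.0052).

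The in vivo against in vitro log2 fold change of Cenpa was -1.68 ± 0.16 (SE, adjusted p = 0.00028) at 1 week and -3.21 ± 0.16 (SE, adjusted p = 1.2e-05) at 2 weeks, 3.20-fold and 9.26-fold lower. The contrast between the weeks was -1.53 ± 0.23 (SE, adjusted p = 0.012) with a 95% interval of -2.08 to -0.98, which missed the threshold on the adjusted p. Cenpf, a protein of the outer kinetochore, was at 1.42 and 1.90 FPKM (culture) and 0.648 and 0.542 FPKM (in vivo) at 1 week, then 0.951 and 0.920 FPKM (culture) and 0.144 and 0.141 FPKM (in vivo) at 2 weeks. Ndc80 was at 1.77 and 1.74 FPKM in culture and 0.75 and 0.816 FPKM in vivo at 1 week, and 0.701 and 0.781 FPKM in culture and 0.232 and 0.293 FPKM in vivo at 2 weeks. These 2 genes passed in vivo against in vitro at each week, and neither passed between the weeks in the heart, where the adjusted p was 0.011 for Cenpf and 0.012 for Ndc80.

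Chromosome structure is served by Top2a, the topoisomerase that untangles sister chromatids, by Mki67, which coats mitotic chromosomes and is a standard marker of proliferation, and by the condensin I subunits Ncapd2, Ncapg and Ncaph. Of the 5, 3 were lower in vivo at each week (Mki67, Top2a and Ncaph), 3 fell in the heart and 2 (Mki67 and Top2a) in culture. Mki67 was at 13.7 and 16.4 FPKM in culture and 5.46 and 6.68 FPKM in vivo at 1 week, and 5.61 and 5.94 FPKM in culture and 2.41 and 1.49 FPKM in vivo at 2 weeks. Top2a was at 13.5 and 14.6 FPKM (culture) and 6.04 and 5.66 FPKM (in vivo) at 1 week, then 5.21 and 5.0 FPKM (culture) and 1.84 and 1.31 FPKM (in vivo) at 2 weeks. For both genes the 2w culture libraries stood close to the 1w in vivo libraries, and the 2w in vivo libraries were lowest. Mki67 was lower in vivo by a log2 fold change of -1.29 ± 0.22 (SE, adjusted p = 0.0033) at 1 week and -1.55 ± 0.22 (SE, adjusted p = 0.0011) at 2 weeks, and Top2a by -1.25 ± 0.15 (SE, adjusted p = 0.00073) and -1.66 ± 0.15 (SE, adjusted p = 0.00016).

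The 3 condensin I genes differed among themselves. Ncaph was lower at log2 -1.39 (adjusted p = 0.00037) and -2.30 (adjusted p = 2.9e-05). Ncapd2 was at 7.01 and 7.42 FPKM (culture) and 3.94 and 4.36 FPKM (in vivo) at 1 week, then 4.07 and 4.0 FPKM (culture) and 2.62 and 2.69 FPKM (in vivo) at 2 weeks, with tight replicates, adjusted p under 0.01 in all 4 comparisons and fold changes that never reached the threshold, the largest being -0.82 (adjusted p = 0.0018) in culture between the weeks. Ncapg was at 1.89 and 2.01 FPKM in culture and 1.09 and 0.576 FPKM in vivo at 1 week, and 0.808 and 0.510 FPKM in culture and 0.226 and 0.192 FPKM in vivo at 2 weeks. Its 1w in vivo replicates were far apart, and the adjusted p was 0.029 at 1 week and 0.019 at 2 weeks although the log2 fold changes were -1.19 and -1.27.

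Spindle proteins are Tpx2, which activates Aurka on microtubules, Prc1, which bundles the midzone, Nusap1 and Hmmr. Of the 4, 3 were lower in vivo at 1 week and 4 at 2 weeks, and all 4 fell both in the heart and in culture. Prc1 was at 4.25 and 4.02 FPKM (culture) and 2.33 and 2.53 FPKM (in vivo) at 1 week, then 2.20 and 1.75 FPKM (culture) and 0.754 and 0.683 FPKM (in vivo) at 2 weeks, and its log2 fold change of -0.75 (adjusted p = 0.0074) at 1 week was below the fold change threshold. At 2 weeks the 4 genes lay between -1.80 (Tpx2) and -1.34 (Prc1).

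Cytokinesis needs Ect2 and Racgap1, which activate RhoA at the cleavage furrow, the scaffold Anln, and Birc5, the survivin subunit of the chromosomal passenger complex. Of these 4, 3 were lower in vivo at 1 week, with Anln the exception, and 4 at 2 weeks. In the heart 4 fell between the weeks, and in culture 3, with Birc5 the exception. Birc5 was at 5.27 and 5.23 FPKM in culture and 2.61 and 2.48 FPKM in vivo at 1 week, and 2.85 and 2.68 FPKM in culture and 1.09 and 0.692 FPKM in vivo at 2 weeks. Anln was at 6.14 and 6.20 FPKM (culture) and 3.11 and 3.18 FPKM (in vivo) at 1 week, then 3.25 and 2.83 FPKM (culture) and 1.48 and 1.42 FPKM (in vivo) at 2 weeks. The Anln replicates were close, and its log2 fold change was -0.95 ± 0.11 (SE, adjusted p = 0.00055) at 1 week and -1.02 ± 0.11 (SE, adjusted p = 0.00031) at 2 weeks.

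**Figure D5:**
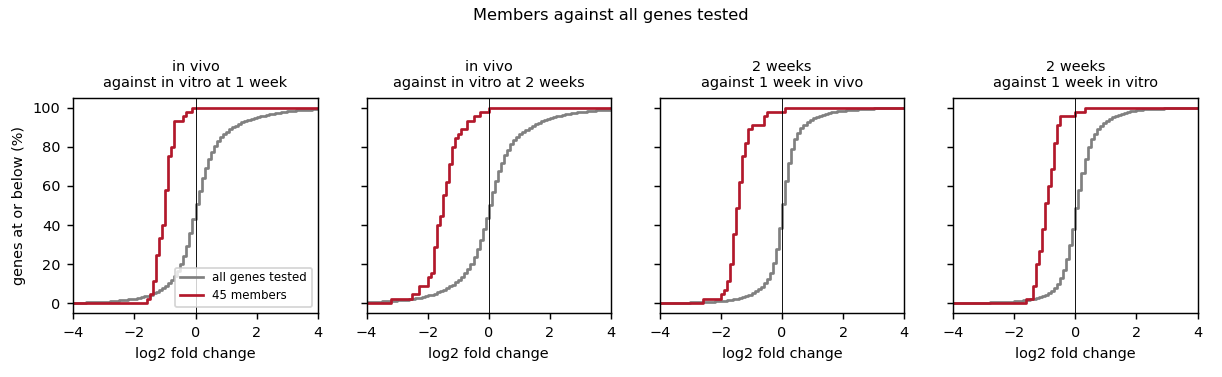
Share of genes (y axis, percent) whose log2 fold change is at or below the value on the x axis, for the 45 members (red) and the 15708 genes tested (grey), in the 4 comparisons named above each panel. The red curve lies to the left of the grey curve in each panel, and at 0 it has reached 45 of 45 members for the heart against culture and 44 of 45 for each comparison of the weeks.

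Other mitotic genes, 75 outside the 45 and 74 of them tested, were lower in vivo in 16 at 1 week and 28 at 2 weeks, with 0 higher at either. Between the weeks 20 fell in the heart and 11 in culture, and 0 rose. At an unadjusted p under 0.05 with limma, 2 were higher in vivo at each week and 1 rose in each condition. Limma voom passed 0 as higher. In these 4 comparisons, 5.07%, 8.05%, 0.949% and 1.05% of all genes tested were called lower. The median log2 fold changes of the listed genes were -0.90, -0.96, -1.10 and -0.87. At 2 weeks the largest difference was that of Spag5, the spindle protein astrin, at -3.68 ± 0.28 (SE, adjusted p = 6.9e-05). Spag5 was at 3.89 and 3.79 FPKM in culture and 1.11 and 1.61 FPKM in vivo at 1 week, and at 6.02 and 5.03 FPKM in culture and 0.236 and 0.467 FPKM in vivo at 2 weeks. Like Cenpa, its culture libraries were higher at 2 weeks than at 1 week. Next was Ckap2 at log2 -2.53 (adjusted p = 0.0022), and at 1 week the largest were Cenpu at -1.69 and Troap at -1.67.

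In the heart, the largest drops among these other genes were those of Cenpm at log2 -2.70 and Depdc1a at -1.96, and in culture those of Aspm at -1.53 and Cenpi at -1.49, all past the threshold. For the contrast between weeks, 1 gene passed, Dsn1 of the Mis12 kinetochore complex, at -1.26 ± 0.18 (SE, adjusted p = 0.0093).

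Other lists covered the machinery that the members act on or answer to. Of 15 subunits and activators of the anaphase-promoting complex, 0 passed at 1 week and 1, Anapc15, was lower in vivo at 2 weeks at log2 -1.37 (adjusted p = 8.0e-04), and 0 passed between the weeks in either condition. At an unadjusted p under 0.05, 5 were lower and 3 higher in vivo at 1 week, 2 were lower and 4 higher at 2 weeks in the heart, and 4 were lower and 2 higher at 2 weeks in culture, and limma voom also passed 0 in these comparisons. Of 13 MuvB, DREAM and pocket protein genes, 1 was lower in vivo at 1 week (Tfdp2, log2 -1.13, adjusted p = 2.2e-04), 0 passed at 2 weeks or between the weeks in the heart (0 with limma voom, and 6 at an unadjusted p under 0.05 in each), and 1 fell in culture (Rbl1, which encodes p107, log2 -1.50, adjusted p = 9.3e-04). Median log2 fold changes of the 2 lists lay between -0.28 and -0.04. Among all genes tested, 5.07% were lower at 1 week, 8.05% at 2 weeks and 1.05% over time in culture. Single calls in lists of 15 and 13 genes say little beside those shares, and no test compared them.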

How the data were processed

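RNA was sequenced from eGFP+ MICFs in 8 libraries, 2 in each of 4 groups, and the groups were taken from the sample labels. The FPKM values were deposited by the authors as 1 table of 54532 genes. The submitters' processing notes name CASAVA, HISAT2 2.0.5 and mm10. Of 54409 gene identifiers shared with GENCODE vM21 (GRCm38), 98.3% had the same start and end. FPKM multiplied by gene length gave whole fragments within 0.01 for 100% of values up to 1000 fragments, and the library size behind the FPKM over the fragments on genes was 0.863 to 0.915 in vivo and 1.09 to 1.15 in culture, so the deposited values include a scaling between libraries that bears on every comparison of heart and culture. Replicates differed by more than counting error, the chi-square being 4.52 to 9.83 per gene. Limits drawn from fragments cover counting error only.

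The 15708 genes that reached 0.5 FPKM in 2 or more libraries, all 45 members among them, were tested on log2(FPKM + 0.1) with limma 3.58.1 in R 4.3.3, with moderated variances and an intensity trend, all 8 libraries sharing the estimate of the spread. Fold changes on this scale understate the change of low genes. Of the members, 30 had at least 0.5 FPKM in both in vivo 2w libraries, and 0 passed the filter through 1 group alone. The procedure was also run on simulated data with the same spread for every gene and changes planted only in vivo at 1 week. That run covered the comparison of heart and culture at 1 week and none of the others. Alternatives were pseudocounts of 0.01 and 1, other filters, FPKM without the scaling, quantile normalization, limma voom on recovered fragments, the compared groups only, the replicate number as a block, other thresholds and each library left out in turn. Further software was Python 3.11.15 with the packages pandas 2.3.3, numpy 2.4.6 and matplotlib 3.10.9.

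All members are accounted for. Values per library are given for 20 genes set by role and, in each comparison, for the 3 largest and 3 smallest changes and any member of opposite direction. Of other lists, the 2 largest called changes and called genes of opposite direction are named, for the cell type markers in the heart against culture only. The members and lists were chosen with earlier results of these data known.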

Additional observations from a re-analysis of the deposited data

Results flagged for a closer look

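Ube2c, the ubiquitin-conjugating enzyme of the anaphase-promoting complex, was the single member that passed limma's interaction contrast of heart against culture between the weeks. The contrast was -1.09 on the log2 scale (adjusted p = 0.0064), with FPKM of 10.9 and 9.91 in culture and 5.26 and 5.4 in vivo at 1 week, and 6.31 and 6.51 in culture and 1.40 and 1.57 in vivo at 2 weeks. All in vivo libraries were below all in vitro libraries of the same week. The value kept its sign in every alternative run, and it lost the call with a pseudocount of 1, with all genes above 0, with the replicate block and without any library but in vivo 2w replicate 2. Reads of a related pseudogene, at 0.741 to 3.83 FPKM, may bear on the level, which was not tested. The limma contrasts of Cdc25c (-2.11, adjusted p = 0.077) and Cenpa (-1.53, adjusted p = 0.012) were larger and missed the adjusted p. For the members that did not pass, a lack of change was not shown.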

How the results depend on the processing

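The number of members called lower moved with the settings, while 0 members were higher in any setting and the medians stayed below 0. With a pseudocount of 1 the counts were 13 (1 week), 13 (2 weeks), 12 (heart over time), 8 (culture over time) and 0 (contrast between weeks). Without the scaling between libraries 41 members were lower at 1 week. With the compared groups only, 17 were lower at 1 week and 19 at 2 weeks. Over time 0 passed in the heart or in culture, where limma passed 0 of all genes with fewer libraries in the fit. With all genes above 0 tested, 8 passed in culture over time and 0 in the contrast, and limma voom gave 25 and 2. The contrast also passed for 2 members when 4 libraries had to reach 1 FPKM and for 2 at an adjusted p under 0.05. Beside the contrast counts of 0, an unadjusted p under 0.05 was found for 7 members with a pseudocount of 1, 18 with all genes above 0 and 19 with the block. Leaving out each library in turn gave 10 to 24, 31 to 35, 5 to 27, 1 to 18 and 0 to 1 members, with the lone library assumed to vary like the other groups and with less information on the spread. Signs turned for Espl1 at 2 weeks (-0.36 to 0.17 over the libraries left out), for Bub3 in the heart over time (-0.022 without the scaling, and -0.056 to 0.090 with libraries left out) and for Bub3 in culture over time (-0.063 to 0.013 with libraries left out), all near 0, and the cause was not tested. The difference of replicate 1 minus replicate 2 was not shared between groups, with correlations of -0.01 to -0.05 across genes. Such values show no common replicate effect and cannot tell whether same-numbered libraries were paired. The replicate block gave 18, 36, 28, 12 and 0 members. Fragments limit the low members, with 1 and 5 on Cdc25c in the in vivo 2w libraries and a median of 36 and 39 over members there.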

Other observations

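Genes of DNA replication and S phase, the step before the genes described above, formed a further list. Of 40 genes tested, 6 passed as lower in the heart at 1 week and 0 as higher, against 5.07% and 7.79% of all genes. At an unadjusted p under 0.05 with limma, 2 were higher at 1 week, and limma voom passed 0 as higher. At 2 weeks 5 were lower and 1 was higher, against 8.05% and 9.02% of all genes. Between the weeks 4 fell in the heart and 6 in culture (0.949% and 1.05% of all genes), and 0 rose in either. The median log2 fold changes were -0.64, -0.46, -0.55 and -0.80 at 1 week, at 2 weeks, over time in the heart and over time in culture, and these medians were not compared by a test. Chaf1b, a subunit of chromatin assembly factor 1, was lower at both weeks, at log2 -1.49 and -2.20 (adjusted p = 0.0027 and 3.5e-04 by limma). Chaf1b was at 3.58 and 3.16 FPKM in culture and 1.35 and 0.951 FPKM in vivo at 1 week, and 2.50 and 2.86 FPKM in culture and 0.625 and 0.406 FPKM in vivo at 2 weeks.

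Rrm1, the large subunit of ribonucleotide reductase, was lower in vivo at 1 week at log2 -1.41. Uhrf1, which guides maintenance methylation of DNA, fell in both conditions, by 1.34 on the log2 scale in the heart and by 1.51 in culture. Ccne1 fell in the heart by 1.19 and Mcm5 in culture by 1.51. Pold1, the catalytic subunit of DNA polymerase delta, went the other way and was higher in vivo at 2 weeks at log2 1.17 ± 0.16 (SE, adjusted p = 8.8e-04), with 5.51 and 4.99 FPKM in vivo and 2.65 and 1.95 in culture.

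Of 8 CDK inhibitor genes, 2 passed as lower in the heart at each week (5.07% and 8.05% of all genes) and 0 as higher. Limma voom passed 2 as lower at 1 week, 1 at 2 weeks (Cdkn2a) and 0 as higher, while at an unadjusted p under 0.05, 2 were higher at 1 week and 1 at 2 weeks. Cdkn2a, which encodes p16 and p19, was at 23.6 and 21.9 FPKM in culture and 6.12 and 7.07 FPKM in vivo at 1 week, and at 29.8 and 31.6 FPKM in culture and 5.74 and 7.49 FPKM in vivo at 2 weeks. The log2 fold change of Cdkn2a was -1.77 at 1 week and -2.21 at 2 weeks, so that this inhibitor was higher in culture together with the mitotic genes. The other was Cdkn3, a phosphatase of CDKs, at log2 -1.51 and -1.34. Between the weeks Cdkn1c, which encodes p57, rose in culture, at log2 1.37 (adjusted p = 0.0041), and 0 of the 8 passed in the heart with limma, where limma voom passed 1.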
